A study of Drosophila melanogaster with 12 samples.

Results

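Ribosomal protein genes of the cytoplasmic ribosome were taken by symbol from the genes that the authors' simulation placed on a list of alternatively spliced genes (AS list, 2000 genes) or a list of genes not so treated (non-AS list, 14595 genes). The symbols began with RpL, RpS or RpLP and a digit, and sta, the older name of RpSA, was added. The older name sop was on neither list, since that gene stood there as RpS2. This gave 93 genes of 16595 (0.56%), of which 22 lay on the AS list and 71 on the non-AS list. The libraries were simulated by computer and modelled the Drosophila S2 line, an embryonic line with hemocyte-like properties. The control group (3 libraries) stood for cells given a non-targeting siRNA, and each of 3 other groups (3 libraries each) for cells given an siRNA against the splicing factor PSI, with splicing changed in the simulation by 60%, 40% or 20%. All 3 levels were compared with the same control libraries, and no cell was treated, so the values describe how splicing programs scored these genes and not what PSI does to them.

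Cytoplasmic ribosomal proteins bind ribosomal RNA and form, with it, the large subunit, which joins amino acids, and the small subunit, which reads the messenger RNA. Their genes are short and strongly transcribed in growing cells, and many carry small nucleolar RNA (snoRNA) genes in their introns. Loss of 1 copy of many of them gives Drosophila the Minute phenotype of slow development and thin bristles. Changes in splicing can alter such a protein, but they can also alter only the leader in front of the start codon.

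For each level the authors deposited a table of gene scores from each of 6 splicing programs, namely Whippet, JUM, MAJIQ, rMATS, MISO and Cufflinks, or 18 tables in all. Each table pooled 3 knockdown and 3 control libraries, so no value per library, no spread between replicates and no depth could be computed. Gene counts are therefore given beside the same counts over all genes, with no p-value. A gene counted as called when its score reached 0.95, or 10 for the Bayes factors of MISO. A gene absent from a table is named unlisted. Expression levels were not in the tables, so S2 markers and the level of Psi could not be checked.

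The AS list held 23.7% of the ribosomal protein genes and 12.1% of all genes. It held 13 of 50 genes of the large subunit, 9 of 39 of the small subunit and none of the 4 genes named RpLP0, RpLP0-like, RpLP1 and RpLP2, whose family includes the proteins of the stalk that recruits translation factors. The 22 genes were spread over the chromosome arms, with 5 of 19 on arm 2L, 3 of 21 on 2R, 5 of 14 on 3L, 5 of 23 on 3R and 3 of 14 on X, and the single gene of chromosome 4, RpS3A.

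Annotated structure, which the choice of genes did not use, was read from Ensembl release 115 on the build BDGP6.54 for 92 of the 93 genes. An intron chain is the set of introns of a transcript, so 2 transcripts that differ only at their ends share 1 chain. Ribosomal protein genes had a median span of 1315 bases, 3 introns and 2 intron chains, where all genes had medians of 1822.5 bases, 2 introns and 1 chain. At least 2 chains were annotated for 57.6% of them and for 32.7% of all genes. Of the ribosomal protein genes on the AS list 59.1% had 2 or more chains, against 42.8% of all AS-list genes. Of those on the non-AS list 57.1% did, against 31.3% of all non-AS-list genes. The AS list held 9 of 33 with introns and 1 chain (27.3%, against 13.1% of all genes of that kind), 7 of 33 with 2 chains (21.2%, against 14.7%) and 6 of 20 with 3 or more (30%, against 16.9%). It held none of the 6 without introns, where the share over all genes was 5.05%.

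snoRNAs guide chemical modification of ribosomal RNA, and those inside introns are released from the host transcript. Introns of 29 ribosomal protein genes (31.5%) held a snoRNA gene on the same strand, against 0.555% of all genes. These 29 held 75 of the 253 intronic snoRNA genes counted over all host genes. The host with the most was RpS5a with 14, followed by RpS7 with 7, both on the non-AS list. On the AS list 10 of the 22 were hosts. Among them RpL15, RpS12 and RpS20 held 2 snoRNA genes each, and RpL5, RpL10Ab, RpL27A, RpL30, RpS3A and RpS9 held 1 each. Hosts were 6 of the 13 AS-list genes with 2 or more chains and 4 of the 9 with 1 chain.

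The first question was how many of the 22 AS-list genes each program called. At the 60% level Whippet called 16 (72.7%, against 43.3% of all AS-list genes) and JUM called 13 (59.1%, against 28.3%). MAJIQ called 12 (54.5%, against 30.4%), Cufflinks 12 (54.5%, against 24.1%) and rMATS 10 (45.5%, against 20.8%). MISO called none, against 0.6%. Of the 22 genes, 16 were called by 1 or more programs (72.7%, against 46.8%) and 12 by 4 or more (54.5%, against 21.6%). For every program but MISO the share was thus above that of the whole AS list, a difference that was not tested because genes are not replicates.

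**Figure D1:**
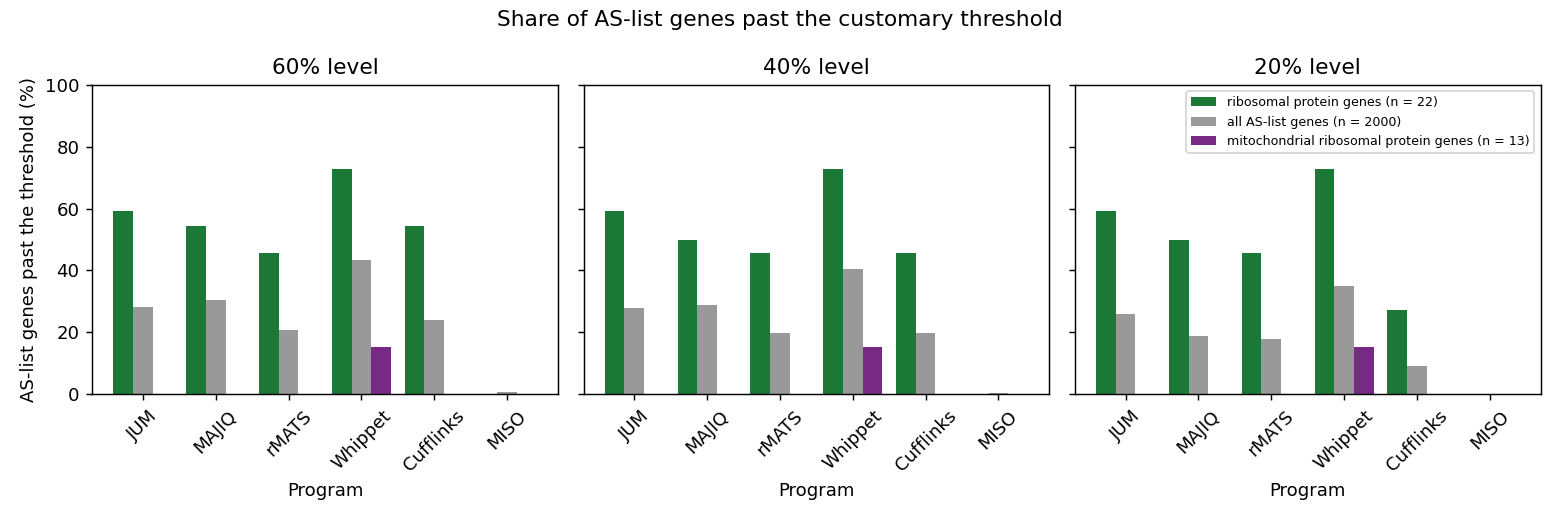
Percentage of AS-list genes past the threshold, by program and level, for the 22 ribosomal protein genes (green), all 2000 AS-list genes (gray) and 13 mitochondrial ribosomal protein genes (purple). Bars show counts of genes and carry no error because each table holds 1 score per gene; Whippet is highest for the ribosomal protein genes at 72.7% at each level.

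Listing was also more frequent than over the whole AS list. At the 60% level JUM listed 17 of the 22 AS-list ribosomal protein genes (77.3%, against 30.8% of all AS-list genes), MAJIQ 19 (86.4%, against 36.7%) and rMATS 12 (54.5%, against 25.4%). Whippet listed 21 (95.5%, against 76.8%), Cufflinks all 22 (against 91.1%) and MISO 9 (40.9%, against 6.35%). Among listed genes alone the comparison ran in both directions. JUM called 76.5% of the ribosomal protein genes it listed at that level, against 91.9% of all the AS-list genes it listed, and MAJIQ 63.2%, against 82.7%. For rMATS the shares were 83.3% and 81.9%, for Whippet 76.2% and 56.4%, and for Cufflinks 54.5% and 26.4%. The higher share of all 22 genes called by JUM and MAJIQ thus stood beside more frequent listing, with a lower share called among listed genes. That lower share did not hold for JUM among genes with 2 or more intron chains. Of those, JUM called all 13 ribosomal protein genes it listed, against 554 of 590 listed AS-list genes. MAJIQ called 12 of the 13 it listed, against 593 of 634.

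Among the AS-list ribosomal protein genes, all calls by JUM, MAJIQ and rMATS fell on those with 2 or more intron chains. The 13 genes with 2 or more intron chains were all called by JUM and by Whippet at the 60%, 40% and 20% levels. Over all 846 AS-list genes with 2 or more chains, JUM called 65.5% and Whippet 75.5% at the 60% level, and 59.6% and 63% at the 20% level. None of the 9 genes with 1 chain was called by JUM, MAJIQ, rMATS or MISO at any level. Across the AS list such calls were also rare: at the 60% level JUM called 0.24% of 832 genes with 1 annotated transcript and 0.669% of 299 genes with 1 chain and 2 or more transcripts. The annotation is later than the dm3 build that the processing notes name, so the transcripts that were simulated may differ from it.

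**Figure D2:**
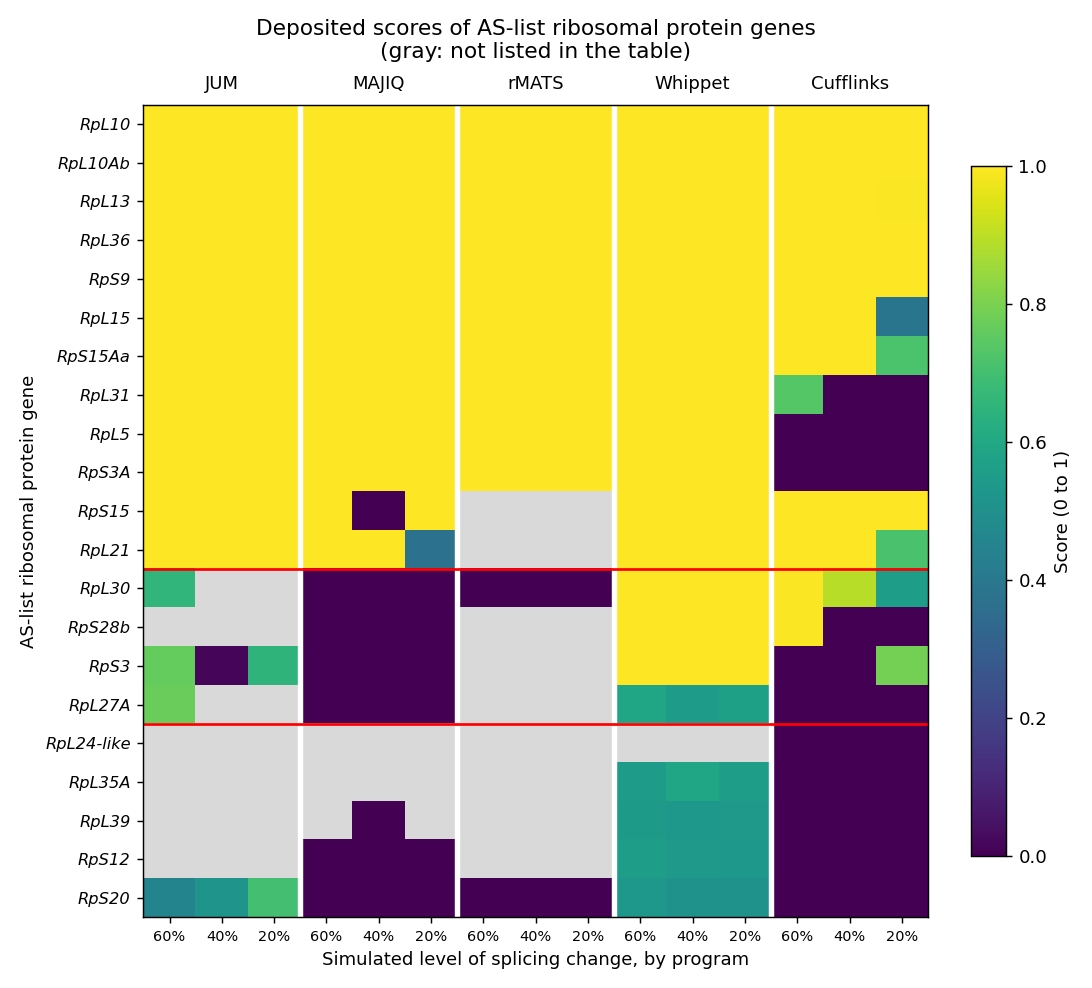
Deposited scores (color, 0 to 1) of 21 of the 22 AS-list ribosomal protein genes in 5 programs at the 60%, 40% and 20% levels; gray marks a gene that is unlisted. Red lines separate 12 genes with 2 or more annotated intron chains (top), the 4 with 1 chain and 2 or more transcripts, and the 5 with 1 transcript (bottom); JUM and Whippet reach 0.95 in every row of the top block.

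Of the 13 genes with several chains, 9 had all their variable introns in front of the start codon, among them RpL5, RpL10, RpL13, RpL15, RpL21, RpL31, RpL36 and RpS15Aa. In these the annotated isoforms share 1 coding structure and differ in the leader. Several also differ at their transcript ends, by up to 2522 bases for RpL5, 446 for RpL10, 154 for RpL13 and 136 for RpS15Aa. RpL15, of the large subunit (3L, 27267255 to 27268445), had the most, with 8 transcripts, 8 chains and 7 variable introns. In the other 4, RpL10Ab, RpS3A, RpS9 and RpS15, at least 1 variable intron lay inside the coding sequence. Of the 13, 5 had a span that overlapped another gene on the opposite strand, from 5 bases (RpL10Ab with CG32095) to 873 bases (RpS9 with asRNA:CR45874). Whether the counting kept such reads apart is not given in the sources used here, and the part of the overlap in the scores was not tested.

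Genes called by 5 programs at every level were RpL10, RpL10Ab, RpL13, RpL36 and RpS9. RpL10 encodes a protein that in yeast joins the large subunit late in its assembly (FBgn0024733, 3L, 23093190 to 23095471, 2 chains). RpL10Ab encodes the protein of the L1 stalk, beside the exit site for transfer RNA (FBgn0036213, 3L, 11822851 to 11824211). RpL13 (2L, 9967313 to 9968645) and RpL36 (X, 628338 to 629483) encode proteins of the large subunit. RpS9 encodes a small-subunit protein that binds ribosomal RNA early in assembly (FBgn0010408, 3L, 9509793 to 9511531, 3 chains). JUM, MAJIQ, rMATS and Whippet gave all 5 genes a score of 1 at each level in the authors' deposited tables. Cufflinks scored all 5 at 0.999741 (60% level) and 0.999637 (40% level) in the authors' deposited tables. Its score for the 20% level was 0.994255 for RpL13 and 0.998743 for the other 4 in the authors' deposited table. These values are the highest in the Cufflinks table of each level, apart from that of RpL13 at the 20% level.

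MISO went against the other programs for the same genes. Bayes factors in the authors' deposited tables were 0 for RpL10 at each level, 0.06, 0.06 and 0.1 for RpL10Ab at the 60%, 40% and 20% levels, and 0, 0 and 0.04 for RpS9. RpL13 and RpL36 were unlisted by MISO. The highest Bayes factor of any ribosomal protein gene in the authors' deposited tables was 6.64, for RpS15Aa at the 20% level, where its values at the 60% and 40% levels were 0.55 and 0.53. MISO thus called none of the 9, 10 and 10 AS-list ribosomal protein genes it listed at the 60%, 40% and 20% levels. Over all AS-list genes it listed, MISO called 9.45%, 4.03% and 0.781%, and over the whole AS list 0.6%, 0.25% and 0.05%, so a count of 0 among 22 genes is near the background.

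RpL15 and RpS15Aa were called by 5 programs at the 60% and 40% levels and by 4 at the 20% level, where Cufflinks dropped out. RpS15Aa encodes a small-subunit protein (X, 13335637 to 13337705, 4 chains). The Cufflinks score of RpL15 in the authors' deposited tables was 0.999741, 0.999637 and 0.390187 at the 60%, 40% and 20% levels, and that of RpS15Aa was 0.999741, 0.999637 and 0.716719. Both kept a score of 1 with JUM, MAJIQ, rMATS and Whippet in the authors' deposited tables at each level.

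RpL5, RpL31 and RpS3A were called by JUM, MAJIQ, rMATS and Whippet at each level and never by Cufflinks. RpL5 encodes the protein that binds the 5S ribosomal RNA (FBgn0064225, 2L, 22532279 to 22536884), RpL31 a protein near the exit of the peptide tunnel (2R, 9587193 to 9587989) and RpS3A a small-subunit protein (chromosome 4, 65225 to 67207). The authors' deposited Cufflinks tables gave RpL5 and RpS3A a score of 0 at each level. RpL31 had 0.736491, 0.002284 and 0 at the 60%, 40% and 20% levels in the authors' deposited Cufflinks tables. All 3 were thus missed by Cufflinks at the 60% level, where it called 10 of the 13 ribosomal protein genes with several chains, against 47.3% of all such AS-list genes.

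RpS15 and RpL21 were unlisted by rMATS at each level, and MAJIQ called them at some levels only. RpS15 encodes a protein of the small-subunit head (2R, 16570112 to 16571230). It was given MAJIQ scores of 1, 2.28e-18 and 1 at the 60%, 40% and 20% levels in the authors' deposited tables, so the middle level alone was missed. RpL21, of the large subunit (2L, 22247111 to 22247875), had MAJIQ scores of 1, 1 and 0.374 and Cufflinks scores of 0.999741, 0.99863 and 0.71302 in the authors' deposited tables.

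Whippet also called 3 of the 4 genes with 1 intron chain and 2 or more transcripts, RpL30, RpS3 and RpS28b, with a score of 1 at each level in the authors' deposited tables. RpS3 encodes a protein at the entry channel for messenger RNA (FBgn0002622, 3R, 23358812 to 23360207), RpL30 a large-subunit protein (2L, 19008031 to 19009306) and RpS28b a small-subunit protein (X, 9554623 to 9555661). The transcripts of these genes end at different positions, 258 bases apart at the most for RpL30, 279 for RpS3 and 452 for RpS28b. RpL27A, of the large subunit (2L, 4457186 to 4458364), had 3 transcripts that share 1 end, with starts up to 47 bases apart. The starts of RpL30 also differ, by up to 69 bases, while RpS3 and RpS28b have 1 start each. The part of these starts and ends in the Whippet calls was not tested. Whippet scored RpL27A 0.591, 0.551 and 0.568 at the 60%, 40% and 20% levels in the authors' deposited tables. Over all 299 AS-list genes of that kind Whippet called 70.9% at the 60% level, 63.9% at the 40% level and 51.5% at the 20% level.

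Cufflinks called RpL30 and RpS28b at the 60% level only, when it called 23.4% of all AS-list genes with 1 chain and 2 or more transcripts. The authors' deposited Cufflinks tables held 0.995747, 0.891343 and 0.562253 for RpL30 at the 60%, 40% and 20% levels, and 0.995537, 0 and 0 for RpS28b. RpS3 ran the other way, with 0, 0 and 0.792129 in the authors' deposited Cufflinks tables, none of them past the threshold. JUM listed RpS3 with scores of 0.765, 0.0134 and 0.651 in the authors' deposited tables, with the lowest at the middle level. The span of RpS28b overlapped by 55 bases that of CG15317, on the opposite strand and also on the AS list, and the part of that overlap in its scores was not tested.

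**Figure D3:**
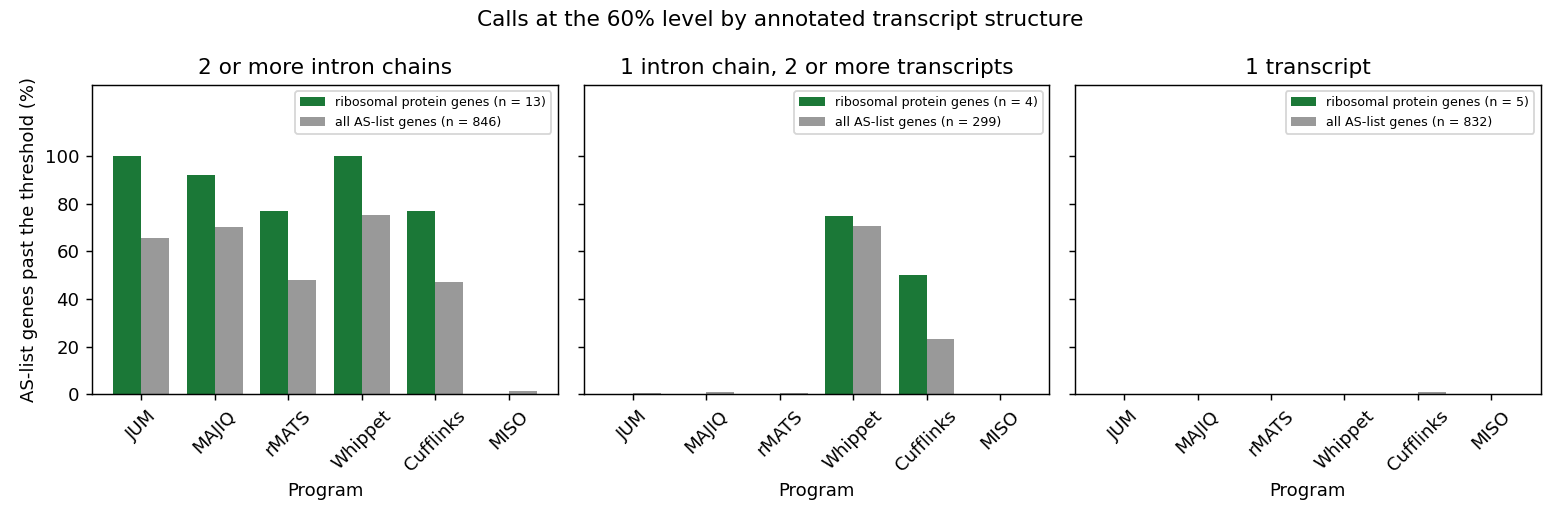
Percentage of AS-list genes past the threshold at the 60% level for genes with 2 or more annotated intron chains, with 1 chain and 2 or more transcripts, and with 1 transcript. Green bars are ribosomal protein genes (13, 4 and 5 genes) and gray bars all AS-list genes (846, 299 and 832), with no error bars; in the middle panel Whippet and Cufflinks are the programs that called ribosomal protein genes, 75% and 50%.

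The 5 AS-list genes with a single annotated transcript, RpL24-like, RpL35A, RpL39, RpS12 and RpS20, were called by no program at any level, as was RpL27A. Of all 832 AS-list genes with 1 annotated transcript, 0.841% were called by 1 or more programs at the 60% level. RpS20, of the small-subunit head (3R, 20822181 to 20823356), had JUM scores of 0.453, 0.517 and 0.702 at the 60%, 40% and 20% levels in the authors' deposited tables. RpS12, known in Drosophila for its part in cell competition between Minute and normal cells (3L, 13023352 to 13024762), was unlisted by JUM, rMATS and MISO. Whippet gave RpS12 0.561, 0.542 and 0.532 in the authors' deposited tables. RpL35A and RpL39, both of the large subunit, were listed by Whippet with scores between 0.532 and 0.59 in the authors' deposited tables. RpL24-like, whose yeast counterpart acts in ribosome assembly, stood only in the authors' deposited Cufflinks tables, at 0.

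How calls moved with the level was the second question. For the 22 genes JUM called 13 at each level, Whippet 16 at each level and rMATS 10 at each level, and each program called the same genes at all 3 levels. Over the whole AS list, of the genes called at any level, JUM called 87.5% at all 3 levels, rMATS 83.7% and Whippet 77.8%. The background at the 40% and 20% levels was 27.9% and 25.8% for JUM, 19.9% and 17.7% for rMATS, and 40.4% and 35% for Whippet. MAJIQ called 12, 11 and 11 at the 60%, 40% and 20% levels (54.5%, 50% and 50%), against 30.4%, 28.8% and 18.7% of all AS-list genes. RpL21 and RpS15 were the 2 genes that MAJIQ called at some levels only.

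Cufflinks moved most with the level. It called 12, 10 and 6 of the 22 genes at the 60%, 40% and 20% levels, against 24.1%, 19.7% and 9.2% of all AS-list genes. RpL30 and RpS28b were called at the 60% level only, and RpL15, RpL21 and RpS15Aa were among those called at the 60% and 40% levels but not at the 20% level. The 6 called at all 3 levels were RpL10, RpL10Ab, RpL13, RpL36, RpS9 and RpS15. Of all AS-list genes that Cufflinks called at any level, 35.5% were called at all 3.

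**Figure D4:**
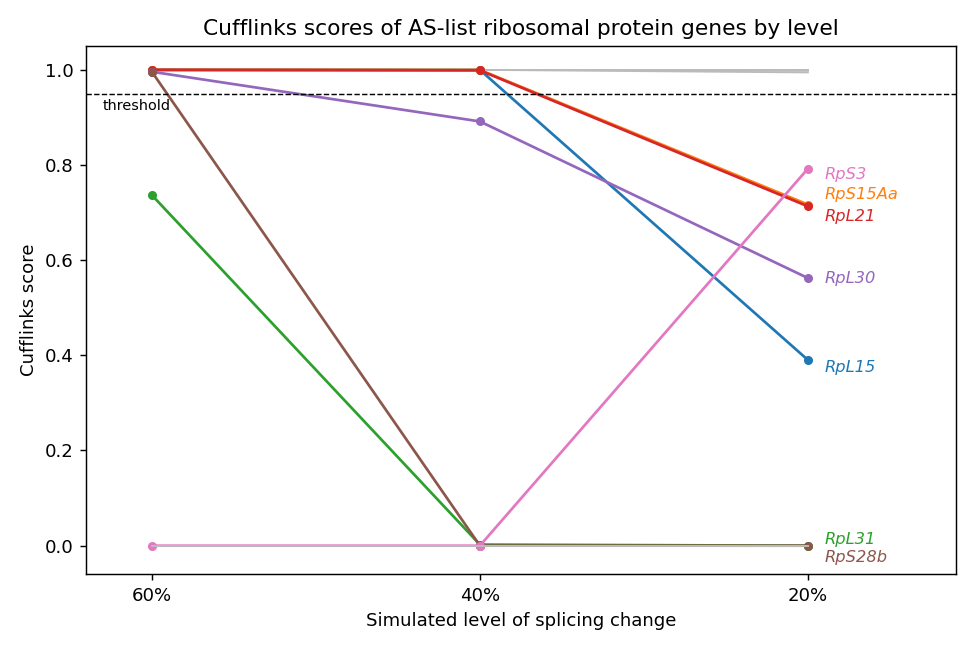
Cufflinks score of 21 AS-list ribosomal protein genes at the 60%, 40% and 20% levels; lines with points and gene names are 7 genes whose score moved, and light gray lines without points those that stayed near 1 or at 0. The dashed line is the threshold of 0.95, which 11, 9 and 6 of the genes shown reach at the 60%, 40% and 20% levels; lines join values of separate groups of libraries and carry no error.

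Calls by 4 or more programs stood at 12, 11 and 11 of the 22 genes, against 21.6%, 19.9% and 13.2% of all AS-list genes, and calls by 5 at 7, 7 and 5, against 13.6%, 11.8% and 4.45%. Calls by 1 or more programs stood at 16 at each level, against 46.8%, 44.1% and 38.5%. In all 3 levels the 6 genes called by no program were the same.

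Ribosomal protein genes on the non-AS list were counted next, as genes whose splicing was not changed. An unlisted gene cannot be called, and 52 of the 71 were listed by Cufflinks alone, so the count does not give a rate of false calls. Of these 71 genes, 1 was called by any program at any level (1.41%, against 2.92% of all non-AS-list genes). It was RpS21, of the small subunit (FBgn0015521, 2L, 2856070 to 2857029, 4 chains), with a JUM score of 0.964868 at the 40% level in the authors' deposited table. Its JUM scores at the 60% and 20% levels were 0.455 and 0.777 in the authors' deposited tables, and its rMATS scores 0.633, 0.24 and 0.00368 at the 60%, 40% and 20% levels. At the 40% level JUM called 0.5% of all non-AS-list genes. Among listed genes it called 1 of these 15 ribosomal protein genes (6.67%), against 8.09% of all non-AS-list genes it listed. At the 60% level none of the 71 was called, where the shares over all non-AS-list genes were 0.0411% (MISO), 0.206% (Cufflinks), 0.24% (rMATS), 0.349% (MAJIQ), 0.61% (Whippet) and 0.617% (JUM).

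Next highest in the JUM tables were RpL40 (0.900131), RpL29 (0.894455) and RpS6 (0.88624), all at the 60% level in the authors' deposited table. RpL40 encodes a large-subunit protein made as a fusion with ubiquitin, and RpS6 the classic substrate of S6 kinase. In the authors' deposited Whippet tables the highest score was 0.938, for RpL13A at the 40% level, followed by 0.889 for sta at the 60% level. The sta gene encodes the small-subunit protein RpSA and had Whippet scores of 0.889, 0.838 and 0.885 at the 60%, 40% and 20% levels in the authors' deposited tables. The authors' deposited Cufflinks tables gave all 71 genes a score of 0 at each level. MAJIQ scores of these genes reached 0.0621, 0.101 and 0.0813 at the most at the 60%, 40% and 20% levels, each time for RpS21, in the authors' deposited tables.

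Listing of these 71 genes was sparse outside Cufflinks. Of the 71, 52 were listed by no other program at any level, and Whippet listed 19 at each level (26.8%, against 14.3% of all non-AS-list genes at the 60% level). RpS2, the gene formerly named sop, was among the 52. JUM listed 12 at the 60% level (16.9%, against 6.16%).

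**Figure D5:**
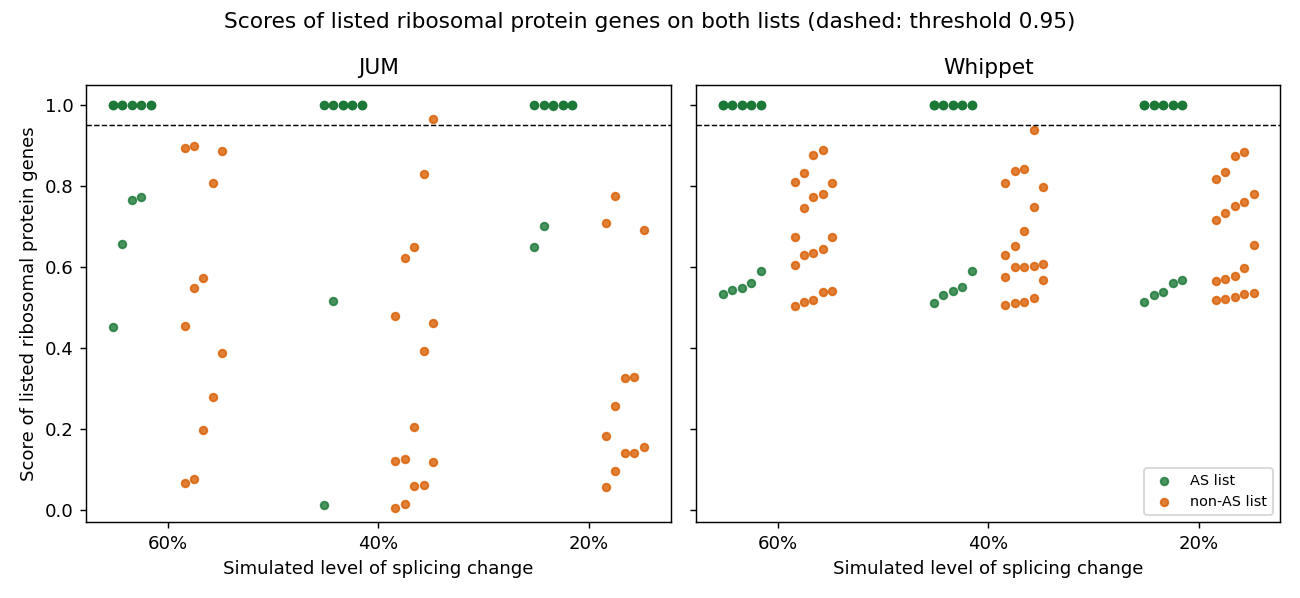
JUM and Whippet scores of the listed ribosomal protein genes on the AS list (green) and the non-AS list (orange) at the 60%, 40% and 20% levels; each point is a gene, spread sideways only to keep points apart. Above the dashed threshold of 0.95 stand 13 AS-list genes with JUM and 16 with Whippet at each level, and 1 non-AS-list gene, RpS21, with JUM at the 40% level.

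For Whippet the listed AS-list ribosomal protein genes formed 2 groups with nothing between them over the 3 levels. The 16 called genes had a score of 1, and the other 5 lay between 0.512 and 0.591 in the authors' deposited tables. Listed non-AS-list ribosomal protein genes lay between 0.504 and 0.938 in the authors' deposited Whippet tables. The lowest score of any gene in those tables was 0.5, so the 5 listed AS-list genes without a call lay near the floor. These 5 genes thus scored within the range of the listed non-AS-list ribosomal protein genes and below the highest of them. RpL35A, RpL39, RpS12 and RpS20 have 1 annotated transcript, and RpL27A has 1 intron chain. At the 60% level Whippet called 0.24% of all AS-list genes with 1 transcript, and 70.9% of those with 1 chain and 2 or more transcripts.

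Some ribosomal proteins have a second gene. RpL10Ab, RpS15Aa, RpS28b and RpL24-like lay on the AS list. Their partners RpL10Aa, RpS15Ab, RpS28a, RpS28-like and RpL24 lay on the non-AS list, so partners were not treated alike in the simulation. RpL10Ab was listed in all 18 tables and called in 15, while its partner RpL10Aa, which has no intron, was listed in 3, all of them Cufflinks. RpS15Aa was listed in 18 and called in 14, and its intronless partner RpS15Ab was listed in the 3 Cufflinks tables. RpS28b was listed in 9 and called in 4, and RpS28a and RpS28-like were listed in the 3 Cufflinks tables. RpL24-like was paired with RpL24 by symbol, though its yeast counterpart acts in ribosome assembly. Both genes were listed in the 3 Cufflinks tables and called in none. How reads shared by such gene pairs were assigned is not given in the sources used here.

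Mitochondrial ribosomal protein genes, the nearest family in function, were set beside them. Of 73 such genes 13 lay on the AS list (17.8%), and 6.85% of the 73 had 2 or more annotated intron chains. None of the 13 had more than 1 chain. JUM, MAJIQ, rMATS and MISO listed none of the 13 at any level. Cufflinks listed all 13 and called none at any level, against 24.1% of all AS-list genes at the 60% level. Whippet called 2 of them, mRpL21 and mRpS18B, at each level (15.4%, against 43.3% of all AS-list genes at the 60% level). At that level Whippet called 0.24% of AS-list genes with 1 transcript and 70.9% of those with 1 chain and 2 or more transcripts. The difference between both families was not tested.

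Other genes of the translation machinery were taken from a list of elongation factors and ribosome-associated proteins and a list of ribosome and snoRNA-protein assembly factors. Both lists were drawn up for this comparison. None of the 9 genes found of the first list, which included Ef1alpha48D, EF2 and Rack1, lay on the AS list. Of 14 assembly genes 3 lay on it: Fib (fibrillarin, a methyltransferase of ribosomal RNA), CG7637 and Surf6. The AS list held 12.1% of all genes, and with so few genes neither count was read as a difference from that share. None of the 3 was called at any level, where 46.8% of all AS-list genes were called by 1 or more programs at the 60% level. No gene of either list on the non-AS list was called, and with so few genes the background of 2.92% gives few calls. Fib had JUM scores of 0.144, 0.553 and 0.386 at the 60%, 40% and 20% levels in the authors' deposited tables, and CG7637 and Surf6 were listed only by Cufflinks, at 0.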

How the data were processed

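The 12 libraries were simulated, per the labels: 3 controls and 3 at each of 3 levels. Per the submitters' processing notes, the build was dm3 and the tools included Cufflinks and STAR 2.5.4b, with no roles given. The authors deposited 18 tables (6 programs, 3 levels), each with a score per gene, and both gene lists. Scores were used as deposited. From the values, as the labels are silent, a score of MISO was taken to be a Bayes factor, one of Whippet or MAJIQ a probability, and one of Cufflinks, JUM or rMATS the complement of a p-value or of a q-value, and the threshold need not be equally strict across programs. The 8 to 10 negative rMATS scores per level belong to no ribosomal protein gene. Class labels matched the lists for every gene.

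Calls were counted at a score of 0.95 or a Bayes factor of 10. No test was run, because each table pools its libraries. Structure came from Ensembl release 115 (BDGP6.54), matched by symbol or a unique RefSeq synonym for 16396 of 16595 genes (98.8%); RpL37a had no unique match. snoRNA genes inside introns on the same strand were counted. Of the AS-list members 1 is counted but not reported here by name. Named genes are all other AS-list members, non-AS-list members called anywhere, genes paired with an AS-list member by symbol, and sta. The genes with the highest scores short of the threshold, the snoRNA hosts with the most snoRNA genes and the split by structure were chosen after their values were seen. Members, lists and alternatives were chosen with earlier results of these data known. The counting was tested on simulated tables. Python 3.11.15, numpy 2.4.6 and matplotlib 3.10.9 were used.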

Additional observations from a re-analysis of the deposited data

How the results depend on the processing

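Of 188 recomputed counts, 152 stayed within 1.5 times the count reported and 36 did not. With a threshold of 0.9 (Bayes factor of 5), 1 AS-list gene passed in MISO at the 20% level, and 1 non-AS-list gene each in JUM at the 60% level and Whippet at the 40% level, where none had. With a threshold of 0.99, 0 non-AS-list genes passed in JUM at the 40% level, so the call of RpS21 was lost. A further alternative set each threshold at the lowest score giving a false positive rate of 5% or less over the non-AS list. Under it Cufflinks counted 12 AS-list genes at the 20% level, and MISO, where that threshold is a Bayes factor of 0, counted all 9, 10 and 10 it listed at the 60%, 40% and 20% levels. Counts among the 71 non-AS-list ribosomal protein genes under it were 10, 10 and 10 for JUM, against 4.99% of all non-AS-list genes at each level. Whippet counted 8, 6 and 8 of the 71, against 4.97%, 4.99% and 4.98%, and MISO 6, 7 and 6, against 1.38%, 1.4% and 1.28%. For MAJIQ the counts were 1, 1 and 1, against 4.99% at each level, and for rMATS 3, 1 and 2, against 3.61%, 3.13% and 3.18%. These differences were not tested. Calls by 5 or more programs in place of 4 or more were 7, 7 and 5 at the 60%, 40% and 20% levels. Calls by 4 or more were also 7, 7 and 5 without JUM, without MAJIQ and without Whippet, and 6 at the 20% level without rMATS. Taking the class from the label column changed no count of calls, which was fixed in advance because the labels match the lists for every gene. Leaving out symbols ending in -like changed the number of ribosomal protein genes on the AS list by less than 1.5 times. Leaving out sta could not change that number, since sta is on the non-AS list. Calls were not recounted without these genes. No paired analysis was possible because each table pools its libraries, and for the same reason no replicate could be left out. Depth per library is unknown.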

Other observations

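Many genes share the highest score of a table, and ribosomal protein genes were among them at each level. Of 1993 genes in the authors' deposited MAJIQ table for the 60% level, 616 scored 1, 12 of them ribosomal protein genes, and of 1976 at the 20% level 73 did, 10 of them ribosomal protein genes. In the authors' deposited Cufflinks tables the highest score was held by 415 genes at the 60% level, with 10 ribosomal protein genes, and by 91 at the 20% level, with 5. The authors' deposited Whippet tables gave a score of 1 to 768 genes at the 60% level and 499 at the 20% level, with 16 ribosomal protein genes each time. These counts were looked up after the scores were seen and were not tested.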
